A study of Mus musculus with 78 samples.

Results

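The DDX and DHX genes encode RNA helicases, proteins that use ATP to unwind or remodel RNA. Members were all mouse autosomal protein-coding genes whose symbol starts with Ddx or Dhx followed by a digit. This rule uses no measured value, but it was set with earlier results of these data known. There were 51 such genes, 35 Ddx and 16 Dhx, and all 51 were listed in both gene tables, among 15218 genes at the 4-cell stage and 15342 genes at the 8-cell stage. The sex-linked relatives of the family were not part of the set.

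Single blastomeres of mouse embryos were sequenced with Smart-seq2, a full-length cDNA method, and 24 columns of the 4-cell and 26 of the 8-cell table were read here. The embryos came from a cross of mice with a CAG-Brainbow2.1 cassette in the Gt(ROSA)26Sor locus and mice with the transgene Tg(CAG-cre/Esr1*)5Amc, so every embryo carried a fluorescent reporter cassette and an inducible Cre recombinase, both under the broadly active CAG promoter. Both stages were exposed to 4-hydroxytamoxifen for 2 h as 2-cell embryos, at 46 h post injection by the sample labels, and were then cultured in KSOM medium. The study's text is not uniform on that hour. No untreated embryos were analysed here, and no column name matches a sample label, so embryos were not assigned to columns. Each stage stands as 1 sample, no test between the stages was made, and all differences are descriptions.

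An RNA helicase of these families grips RNA with a pair of RecA-like domains and couples ATP hydrolysis to changes in RNA or RNA-protein structure. The DEAD and DEAH boxes are the short Walker B motifs of the ATPase core that gave the families their names. Members act at nearly every step of the life of an RNA, from splicing and export to ribosome assembly, translation, storage and decay, and a few are known from the germ line or from the sensing of viral RNA. In cleavage-stage embryos, transcripts stored by the oocyte are degraded while the embryo's own genome is transcribed.

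The box is found in most of these genes and in few others, and none of the 8 forms searched was found in Ddx52 and Dhx32. The in-frame codons for DEAD were found in the coding sequence of 27 of the 51 members and of 0.644% of 20949 other genes, and those for DEAH in 9 members and 0.325% of other genes. The forms DECD, DECH, DEVD, DEVH, DEIH and DEID were found in 3, 2, 3, 5, 2 and 1 members. In the same order, 0.177%, 0.0764%, 0.697%, 0.248%, 0.177% and 0.511% of other genes held them, and a gene can hold more than 1. Each search took a match anywhere in the coding sequence, so a match need not be the box of the ATPase core. Ddx17 held DEAD at codon 246 and DECD at 505, and Ddx39b DECD at 196 and DEID at 416. Dhx29 held DEVH at 701 and DEAD at 1118. The windows below are RefSeq coding sequence on GRCm38.p6, each of 30 bases in 1 exon, written from 5′ to 3′ on the coding strand with the 4 codons of the box in capitals. They are those of the 2 members past 2-fold between the stages, the 2 highest members, the 2 most similar pairs and, as an example of a DEAH box, Dhx15.
Ddx4, DEAD, chr13:112612088-112612117, minus strand: ttagttttgGATGAAGCTGATcgaatgttg
Ddx17, DEAD, chr15:79538866-79538895, minus strand: cttgtgttgGATGAGGCTGACcggatgctt
Ddx5, DEAD, chr11:106785184-106785213, minus strand: cttgtccttGATGAAGCTGATaggatgctt
Ddx39a, DECD, chr8:83721101-83721130, plus strand: tttgtgctaGATGAATGTGACaagatgctg
Ddx39b, DECD, chr17:35247081-35247110, plus strand: tttattttgGACGAGTGTGACaagatgctt
Ddx19a, DEAD, chr8:110979077-110979106, minus strand: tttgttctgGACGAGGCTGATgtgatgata
Ddx19b, DEAD, chr8:111011326-111011355, minus strand: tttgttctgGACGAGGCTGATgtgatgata
Dhx15, DEAH, chr5:52171487-52171516, minus strand: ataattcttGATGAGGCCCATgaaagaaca
The windows of Ddx19a and Ddx19b are the same in every base, whereas those of Ddx39a and Ddx39b differ although the proteins are closely related.

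Values are FPKM, fragment counts scaled by the length of the gene and the total of the library, a share that does not give molecules per cell. A gene was called expressed above an FPKM of 1. The fragments behind a blastomere, estimated from the smallest steps of its values, numbered 6869040 to 16872400 in 4-cell blastomeres and 2337440 to 21741500 in 8-cell blastomeres. Between 3009 and 8276 genes were expressed in a 4-cell blastomere and between 3548 and 8078 in an 8-cell blastomere. In 2 of the 4-cell and 1 of the 8-cell blastomeres fewer than 0.6 of the stage's median number of genes were expressed, and these are called gene-poor. The tissue label was checked with markers. Dppa3, a maternal gene of the early embryo, had medians of 3658 and 3260. A median above 1 was found for 8 of 10 blastomere markers at the 4-cell stage and 6 of 10 at the 8-cell stage. Of listed protein-coding genes, 47.1% and 43.1% passed. Bmp15 (0.164 and 0) and Obox3 were below 1 in both stages, and Nlrp5 (0.122) and Gdf9 (0) at the 8-cell stage. Obox3 of that list stayed at or below 0.563. Of 8 cumulus and granulosa markers, 4 and 3 were listed, with summed FPKM of 0 to 3.06 and 0 to 9.51, and of 5 sperm markers 3 and 2 were listed, with sums of 0 to 8.79 and 0 to 23.3. The median sum was 0 for both lists in both stages, and no blood marker was listed. Of the 3 genes named for vessel and stroma, Pecam1 had medians of 50.8 and 22.8, Col1a1 was at most 0.0115 and Dcn was not listed.

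Most helicase genes were expressed at both stages. The median FPKM was above 1 for 43 of 51 members at the 4-cell stage, where 47.1% of listed protein-coding genes passed, and for 41 of 51 at the 8-cell stage, where 43.1% passed. Of these, 40 passed in both stages, Ddx4, Ddx19a and Ddx51 only at the 4-cell stage and Dhx35 only at the 8-cell stage. The remaining 7 members, Ddx11, Ddx25, Ddx43, Ddx58, Ddx59, Dhx34 and Dhx58, had a median at or below 1 in both. Each of the 51 members was nevertheless above 1 in at least 1 blastomere of each stage. Of the 13604 genes listed in both tables, 13041 were above 1 in at least 1 blastomere of either stage, which is a looser condition. The share of all genes above 1 in each stage was not computed, so nothing particular to the members is read from this count. Above 1 in every blastomere were 10 members at the 4-cell stage, against 9.55% of protein-coding genes, and 8 at the 8-cell stage, against 12.2%. Of these, 6 were expressed in all blastomeres of both stages, namely Ddx5, Ddx18, Ddx21, Ddx24, Ddx39a and Ddx46. Per blastomere, the members together made up 0.386% to 0.746% of the summed FPKM at the 4-cell stage and 0.294% to 0.741% at the 8-cell stage.

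**Figure D1:**
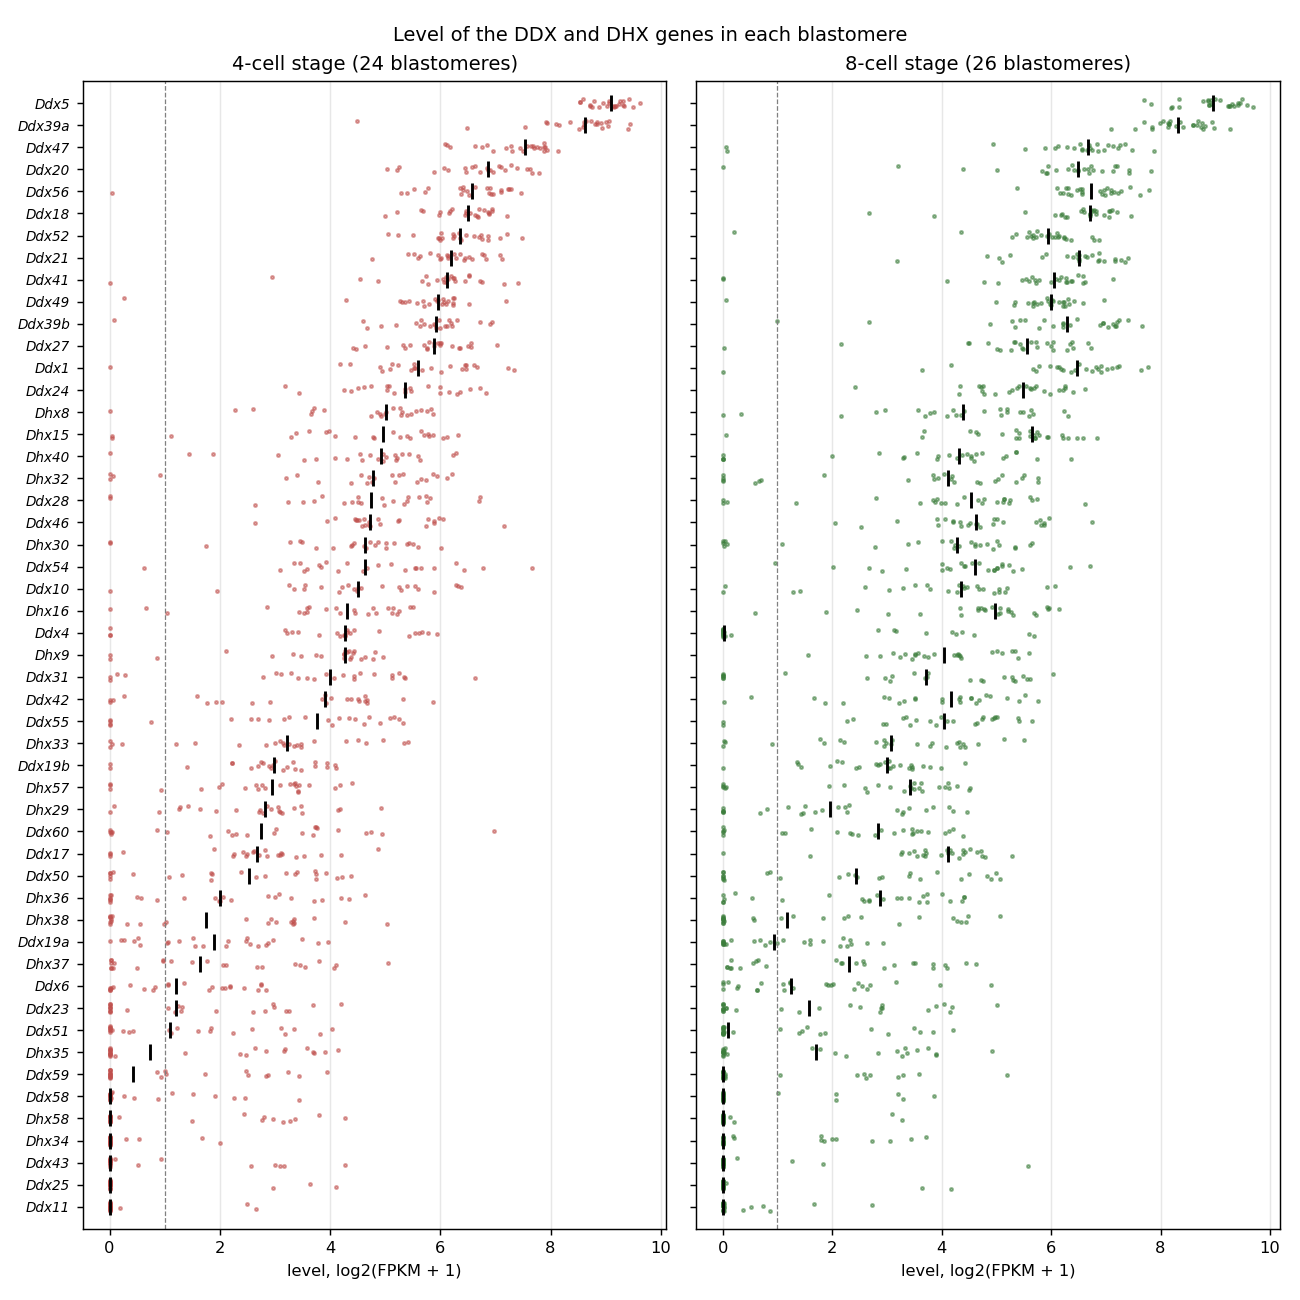
Level of each of the 51 genes in each blastomere as log2(FPKM + 1), with 24 blastomeres of the 4-cell stage on the left and 26 of the 8-cell stage on the right. Each point is 1 blastomere, the black mark is the stage median, the dashed line is an FPKM of 1, and genes are ordered by their 4-cell median, from Ddx5 (549.8) down to genes with a median of 0.

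Among the 12 members that act in splicing, 11 had a median above 1 at the 4-cell stage and all 12 at the 8-cell stage. Ddx5, a cofactor of splicing and microRNA processing, was the highest member of the whole set. It ranged from 369 to 786 with a median of 549.8 in 4-cell blastomeres and from 207 to 825 with a median of 497 in 8-cell blastomeres. Its level overlapped between the stages, and its 4-cell median stood at the 99.3 percentile of listed genes. Ddx20, the Gemin3 subunit of the SMN complex that assembles spliceosomal snRNPs, ranged from 31.9 to 222 with a median of 115 and then from 0 to 226 with a median of 88.7. Ddx41, also a spliceosome protein, was lower, at medians of 68.8 and 65.1.

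The helicases that drive single steps of the spliceosome were lower and spread over a wide range. Dhx15, which takes the spliceosome apart, ranged from 0.0331 to 78.6 with a median of 30.6 at the 4-cell stage and from 0.0409 to 113 with a median of 49.4 at the 8-cell stage. Its difference of medians was 0.68 on the log2(FPKM + 1) scale, under the 2-fold line used here. Dhx16, which activates the spliceosome for catalysis, had medians of 18.9 and 30.4 and a difference of 0.66. Dhx8, which releases the spliced mRNA, went the other way with medians of 31.2 and 19.9 and a difference of −0.63. Ddx46 had medians of 25.4 and 23.8, and Ddx42 of 14.1 and 16.998. Low members of this group were Ddx23, with medians of 1.32 and 2.02, Dhx38, with 2.79 and 1.27, and Dhx35, with 0.821 and 2.26. Each of these 3 was at 0 in some blastomeres of both stages and above 16 in others.

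Ddx17, the close relative of Ddx5, was the only member at least 2-fold higher at the 8-cell stage, where 5.4% of the 13041 genes compared were so. Its values ran from 0 to 28.3 with a median of 5.38 in 4-cell blastomeres and from 0.00728 to 37.9 with a median of 16.2 in 8-cell blastomeres. The ranges overlapped, but 24 of 26 8-cell blastomeres lay above the 4-cell median and only 2 of 24 4-cell blastomeres above the 8-cell median. The difference of the medians was 1.44 on the log2(FPKM + 1) scale, or 2.71-fold, and the 8-cell value was the higher one in 84.9% of all pairs of blastomeres across the stages. In the 5 8-cell columns named NA the median was 20.6, and in the other 21 it was 12.1, which still left a difference of 1.04. Ddx5 was above Ddx17 in every blastomere of both stages, and over blastomeres the pair had Pearson's r of 0.0191 (n = 24) and 0.358 (n = 26) and Spearman's rho of −0.00609 and −0.0414, given as a description of libraries that differ in depth.

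The 4 export members were led by Ddx39a. Ddx39a and Ddx39b are the paralogous helicases of the TREX complex, which couples transcription and splicing to export of the mRNA. Ddx39a ranged from 21.4 to 695 with a median of 393 at the 4-cell stage and from 136 to 617 with a median of 318 at the 8-cell stage. Ddx39b ranged from 0.0592 to 122 with a median of 59.3 and from 0.978 to 200.5 with a median of 77.3. Ddx39a was the higher of the pair in 23 of 24 and in 26 of 26 blastomeres. The proteins share 90.9% of residues over the longer one, so their values are uncertain as those of near-copies, although no 100-base window of either mRNA had an exact copy elsewhere in the genome.

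Ddx19a and Ddx19b are neighbouring genes for the helicase that strips proteins from mRNA at the nuclear pore, and their proteins share 89.5% of residues. Ddx19b had medians of 6.89 and 6.96 and was above Ddx19a in 19 of 24 and 22 of 26 blastomeres. Ddx19a ranged from 0 to 14.6 with a median of 2.77 at the 4-cell stage and from 0 to 6.61 with a median of 0.905 at the 8-cell stage, a difference of −0.97. It was above 1 in 18 of 24 and then in 12 of 26 blastomeres. Exact copies of 100-base windows elsewhere covered 23.2% of the Ddx19a and 7.24% of the Ddx19b mRNA, and since only uniquely aligned reads were counted, the values of both genes, Ddx19a above all, are uncertain.

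Ribosome biogenesis was the largest group, with 16 members, and it held 12 members with a median above 10 in each stage. Of the 13041 genes compared, 4165 at the 4-cell stage and 4091 at the 8-cell stage had a median above 10. Ddx47, which acts in early processing of the small subunit rRNA, ranged from 66.9 to 282 with a median of 185 at the 4-cell stage and from 0.0453 to 234 with a median of 101 at the 8-cell stage. It was the member with the fewest 8-cell blastomeres above the 4-cell median, 1 of 26, while 20 of 24 4-cell blastomeres lay above the 8-cell median. The difference of −0.86 did not reach 2-fold. Ddx56, Ddx18 and Ddx21 had close levels, with medians of 94.97, 89.8 and 72.5 at the 4-cell stage and of 106, 104 and 89.96 at the 8-cell stage, and ranges that overlapped throughout. Ddx18 has the largest share of windows with an exact copy elsewhere, 39.6% of its mRNA, and its values are uncertain under unique counting.

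The other high members of this group were Ddx52 at medians of 80.6 and 60.4, Ddx49 at 61.1 and 62.8, Ddx27 at 58.1 and 46.0, and Ddx24 at 40.3 and 43.6. Ddx54 (23.8 and 23.6), Ddx10 (21.6 and 19.5), Ddx31 (15.02 and 12.2) and Ddx55 (12.7 and 15.6) came next. Lower still were Dhx33 at 8.27 and 7.48 and Ddx50, the paralog of nucleolar Ddx21, at 4.80 and 4.41. Dhx37, a helicase of the small subunit processome, had medians of 2.11 and 3.96. Ddx51, a factor of the large subunit, was the lowest of the group. It ranged from 0 to 15.5 with a median of 1.13 and from 0 to 17.6 with a median of 0.0720, yet it was above 1 in 13 of 24 and 12 of 26 blastomeres. Its difference of −0.99 thus rests on a median that lies between blastomeres where the transcript was detected and those where it was not.

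The pair of members that serve mitochondrial ribosomes and RNA had similar levels, Ddx28 with medians of 26.1 and 22.2 and Dhx30 with 23.9 and 18.4. Members for storage, decay and translation of mRNA were low for this set, and none of the 4 had a median above 10. Most genes had none either, since 4165 and 4091 of the 13041 genes compared had a median above 10. Ddx6, the helicase of P-bodies and of stored oocyte mRNA, had medians of 1.33 and 1.39 and was above 1 in 14 of 24 and 17 of 26 blastomeres. Dhx29, which helps the small ribosomal subunit through structured leaders, had medians of 6.07 and 2.92 and a difference of −0.86. Dhx36, which unwinds G-quadruplexes, had medians of 2.99 and 6.33 and a difference of 0.88. Dhx34, a factor of nonsense-mediated decay, had a median of 0 in both stages and was above 1 in 2 of 24 and 9 of 26 blastomeres.

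Of the 3 germ-line members, only Ddx4 had a median above 1, and only at the 4-cell stage. Ddx4 is the mouse homolog of Drosophila vasa, a marker of germ cells and a helicase of the piRNA pathway. Its values ran from 0 to 60.4 with a median of 18.3 in 4-cell blastomeres and from 0 to 50.4 with a median of 0.0108 in 8-cell blastomeres. It was above 1 in 21 of 24 and in 10 of 26 blastomeres. The difference of −4.25 on the log2(FPKM + 1) scale, or 19.1-fold, made it the only member at least 2-fold lower at the 8-cell stage, where 10.1% of all genes compared were so. The 8-cell median stands for 0.503 fragments, below the floor of 3 fragments that a count of 0 allows, so its size depends on the pseudocount, and with means in place of medians it was −2.32. Ddx4 was called in every setting that left out 1 blastomere, but the number of lower members ran from 1 to 4 over these.

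Ddx4 was either well detected or near 0, with no value between. The 21 4-cell blastomeres above 1 held 8.04 to 60.4 (median 18.9) and the other 3 were at 0. The 10 8-cell blastomeres above 1 held 6.18 to 50.4 (median 17.8), and the other 16 were at or below 0.116. Where Ddx4 was detected above 1 its levels in both stages thus covered much the same range, and the number of such blastomeres was what differed. A value of 0 is no detection and not absence, since Snrnp200, a core helicase of the spliceosome, was also at 0 in single blastomeres of both stages. For Ddx4, 3 fragments correspond to 0.0624 to 0.153 in 4-cell and 0.0484 to 0.450 in 8-cell blastomeres, a floor that covers counting error only. The 8-cell blastomeres with Ddx4 above 1 expressed 5391 to 8078 genes (median 6698), and the others 3548 to 7673 (median 6773). Ddx4 was above 1 in 4 of the 5 columns named NA, where the median was 19.7, and in 6 of the other 21, where it was 0. The part of the embryo of origin in this pattern was not tested.

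Ddx25, a testis helicase regulated by gonadotropin, had a median of 0 in both stages and was above 1 in 3 of 24 and 2 of 26 blastomeres, at most 16.3 and 17.01. Ddx43, known from testis and tumours, also had a median of 0 in both and was above 1 in 5 of 24 and 3 of 26 blastomeres, at most 18.3 and 47.0.

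Germ-line helicases without a Ddx or Dhx name were read beside Ddx4. Mov10l1, a piRNA biogenesis helicase, had medians of 4.34 and 0 and was above 1 in 16 of 24 and 6 of 26 blastomeres, a difference of −2.41, or −1.59 with means in place of medians. All 16 of those 4-cell blastomeres also had Ddx4 above 1, as had 21 of all 24. At the 8-cell stage 3 of the 6 did, against 10 of all 26. Tdrd9, another piRNA helicase, had medians of 2.57 and 0.535, a difference of −1.20, but was above 1 in nearly as many blastomeres of both stages, 13 of 24 and 11 of 26. Of the 3 4-cell blastomeres with Ddx4 at 0, 2 had Tdrd9 above 1. The 2-fold call of Tdrd9 was lost with means in place of medians (−0.342) and in 12 of 50 settings that left out 1 blastomere. D1Pas1, a testis relative of Ddx3x, had medians of 2.74 and 1.77 and was above 1 in 12 of 24 and 14 of 26 blastomeres. Its difference of 0.10 has the opposite sign to these medians, because the middle values were averaged after taking logs. No direction is read from it. Hfm1, a meiotic DNA helicase, had a median of 0 in both stages, and Ythdc2, needed for entry into meiosis, had medians of 0.171 and 0 and a difference of −0.23. Of 6 named partners of Ddx4, 3 were compared and none reached 2-fold, where 5.4% of all genes compared were higher and 10.1% lower. Piwil2, a PIWI protein, had medians of 12.8 and 10.6 and was above 1 in 21 of 24 and 21 of 26 blastomeres, and Mael had medians of 12.4 and 8.50.

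**Figure D2:**
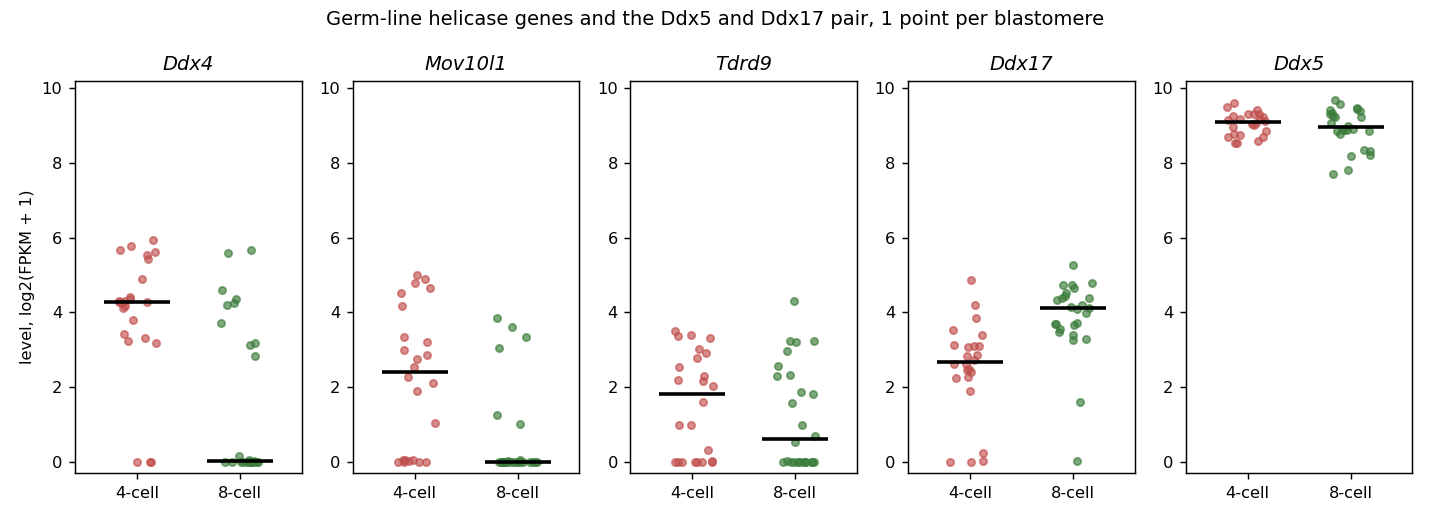
Level of Ddx4, Mov10l1, Tdrd9, Ddx17 and Ddx5 as log2(FPKM + 1), 1 point per blastomere, with 24 blastomeres of the 4-cell stage and 26 of the 8-cell stage and a black line at the stage median. Ddx4 splits into blastomeres at or below an FPKM of 0.116 and blastomeres above 6, Ddx17 lies higher at the 8-cell stage, and Ddx5 stays above 200 in every blastomere.

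Members known for sensing viral RNA were at low level or near 0. Ddx58, the gene of RIG-I, had medians of 0.00845 and 0 and was above 1 in 6 of 24 and 6 of 26 blastomeres. Dhx58, the gene of LGP2, had a median of 0 in both stages and was above 1 in 10 of 24 and 2 of 26 blastomeres, at most 18.4 and 8.63. Ddx60, an antiviral helicase, had medians of 5.78 and 6.11 and 1 4-cell blastomere at 124.

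The 7 remaining members have varied nuclear or little-known roles. Ddx1, a subunit of the tRNA ligase complex, ranged from 0 to 162 with a median of 47.5 at the 4-cell stage and from 0 to 218 with a median of 88.1 at the 8-cell stage. Its difference was 0.88, and the 8-cell value was the higher one in 70.3% of pairs. Dhx32 had medians of 26.4 and 16.3, Dhx40 of 29.4 and 19.05, Dhx57 of 6.76 and 9.78, and Dhx9, a nuclear helicase of double-stranded RNA, of 18.2 and 15.6. Ddx11, a DNA helicase of sister chromatid cohesion, had a median of 0 in both and was above 1 in 2 of 24 and 2 of 26 blastomeres. Ddx59 had medians of 0.403 and 0 and was above 1 in 10 and 9 blastomeres.

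Between the stages, the order of the members by level was nearly kept. Over the 51 members the stage medians on the log2(FPKM + 1) scale had Pearson's r of 0.948 and Spearman's rho of 0.959, and over all 13041 genes compared r was 0.946, so the members did not stand apart in this. Of the 8 highest members, 7 were shared by both stages. The median difference over the members was −0.0121, against 0 over all genes, with 20 members above 0, 26 below 0 and 35 within 0.5 of 0. Of all genes compared, 27.9% were above 0, 37.1% below 0 and 69% within 0.5 of 0. The 1 member of 51 past 2-fold in each direction is to be read against 5.4% of all genes higher and 10.1% lower. These counts depended on the blastomeres used, with 5 higher and 3 lower without the columns named NA and 1 to 2 higher and 1 to 4 lower when 1 blastomere was left out. After Ddx17, the largest positive differences were those of Dhx35 (0.97), Ddx1 (0.88), Dhx36 (0.88), Dhx15 (0.68) and Dhx37 (0.67). After Ddx4, the largest negative ones were those of Ddx51 (−0.99), Ddx19a (−0.97), Ddx47 (−0.86), Dhx29 (−0.86) and Dhx32 (−0.66). The ranges of the stages over blastomeres overlapped for all 51 members, as they did for every gene compared (0.0% without overlap).

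**Figure D3:**
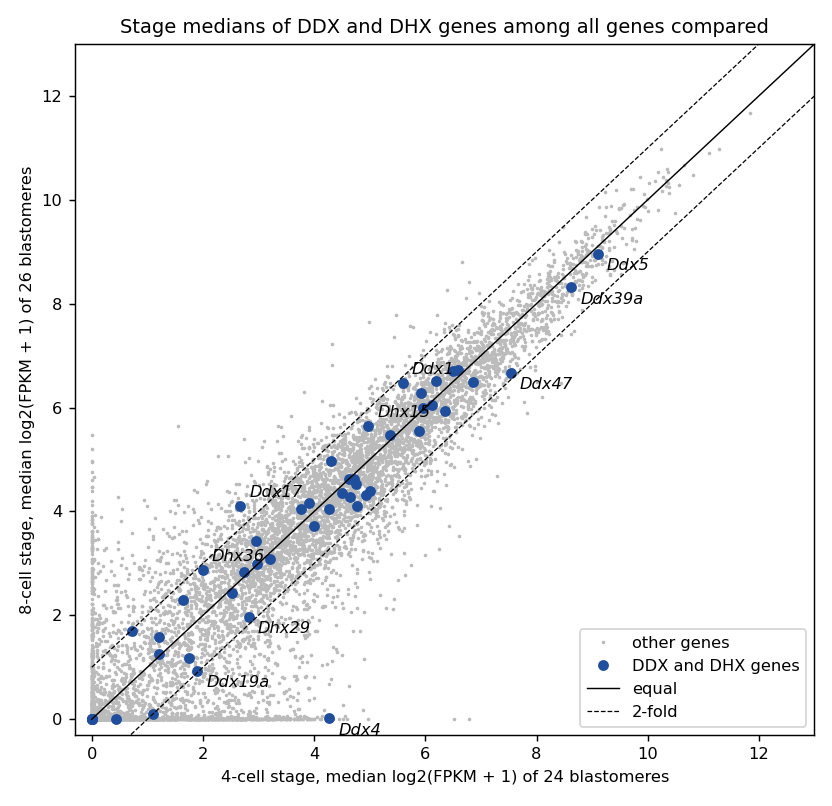
Stage medians of log2(FPKM + 1), with 24 4-cell blastomeres on the horizontal axis and 26 8-cell blastomeres on the vertical axis, for 13041 genes (grey) and the 51 helicase genes (blue). The solid line marks equal medians and the dashed lines 2-fold, and Ddx17 (1.44) lies above the upper and Ddx4 (−4.25) far below the lower dashed line.

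The levels of most members differed widely from one blastomere to the next, as did those of most genes. In both, low genes differed more. A spread was called wide where the interquartile range of log2(FPKM + 1) over blastomeres was above 1, among genes with a median above 1. It was wide for 28 of 43 members at the 4-cell stage, where 74.0% of such genes were wide, and for 26 of 41 at the 8-cell stage, against 72.0%. With standard deviations in place of interquartile ranges it was wide for 34 members at each stage, against 81.7% and 75% of such genes. The spread followed the level. With a median of 1 to 10 it was wide for 12 of 14 members at the 4-cell stage (96.5% of genes) and 12 of 12 at the 8-cell stage (97.9%). With a median of 10 to 100 it was wide for 16 of 25 (73.3%) and 14 of 24 members (73.0%). Above 100 it was wide for 0 of 4 (16%) and 0 of 5 members (10.1%). At 10 to 100 the median interquartile range of the members was 1.35 and 1.24, and that of all genes 1.33 and 1.32.

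Among members with a median above 1, Ddx5 had the narrowest spread in both stages, with interquartile ranges of 0.50 and 0.54 and quartiles of 437 to 619.8 and of 445 to 647. Next at the 4-cell stage were Ddx39b (0.55), Ddx21 (0.62), Ddx49 (0.63), Ddx41 (0.69) and Ddx18 (0.70). At the 8-cell stage they were Ddx49 (0.56), Ddx52 (0.57), Ddx39a (0.65), Ddx18 (0.66) and Dhx15 (0.76). Dhx15 was wide at the 4-cell stage, at 1.87. The converse held for Ddx39b, which reached 1.52 at the 8-cell stage. Ddx17 had 0.85 in both stages. Genes with a 4-cell median of 1 to 10, as Ddx17 had, showed a median of 2.54 and quartiles of 1.80 and 3.30, and genes with an 8-cell median of 10 to 100 showed 1.32, 0.972 and 1.90.

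Among members with a median above 1, the widest spreads at the 4-cell stage were those of Dhx37 (3.32), Dhx38 (3.30), Ddx23 (2.85), Ddx50 (2.82), Ddx60 (2.76) and Dhx36 (2.76). At the 8-cell stage they were Dhx32 (4.03), Ddx31 (3.73), Ddx50 (3.61), Dhx38 (3.496), Dhx35 (3.32) and Dhx37 (2.94). Dhx32 and Ddx31 were wide at a fairly high level. Dhx32 had 8-cell quartiles of 1.12 and 31.4, and Ddx31 of 2.21 and 37.0. In all, 35 members at the 4-cell stage and 36 at the 8-cell stage were at or under 3 fragments in at least 1 blastomere and above an FPKM of 10 in at least 1 other, as were 57.9% and 56.2% of all genes compared that had a length.

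**Figure D4:**
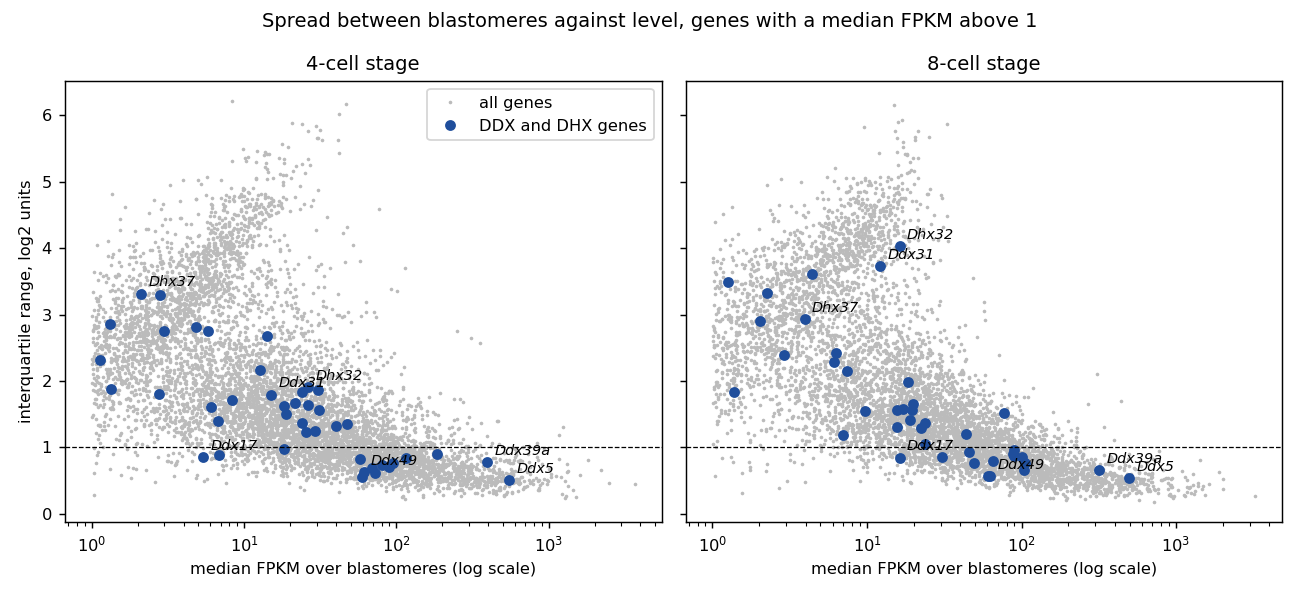
Interquartile range of log2(FPKM + 1) over blastomeres against the median FPKM (log axis) for genes with a median above 1, with all genes in grey and the 43 (4-cell) and 41 (8-cell) helicase genes in blue. The dashed line is the limit of a wide spread, and the members above a median of 100, with Ddx5 and Ddx39a farthest right, all lie below it.

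The number of members found in a blastomere moved with the number of all genes found there. Between 20 and 46 members (median 41) were above 1 in a 4-cell blastomere and between 26 and 47 (median 40.5) in an 8-cell blastomere. Against the number of genes above 1, Pearson's r was 0.947 over the 24 4-cell and 0.848 over the 26 8-cell blastomeres, and Spearman's rho was 0.763 and 0.624. Both counts of a point come from the same library, so this is a description. Without the gene-poor blastomeres r was 0.854 (n = 22) and 0.829 (n = 25). Against the estimated fragments r was 0.240 and 0.448 and rho 0.0426 and 0.0744, and without the gene-poor blastomeres r was 0.103 and 0.272. The gene-poor blastomeres of the 4-cell stage had 20 and 26 members above 1, and that of the 8-cell stage, with the fewest fragments (2337440), had 28. The part of library quality in the zeros of single members was not tested.

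**Figure D5:**
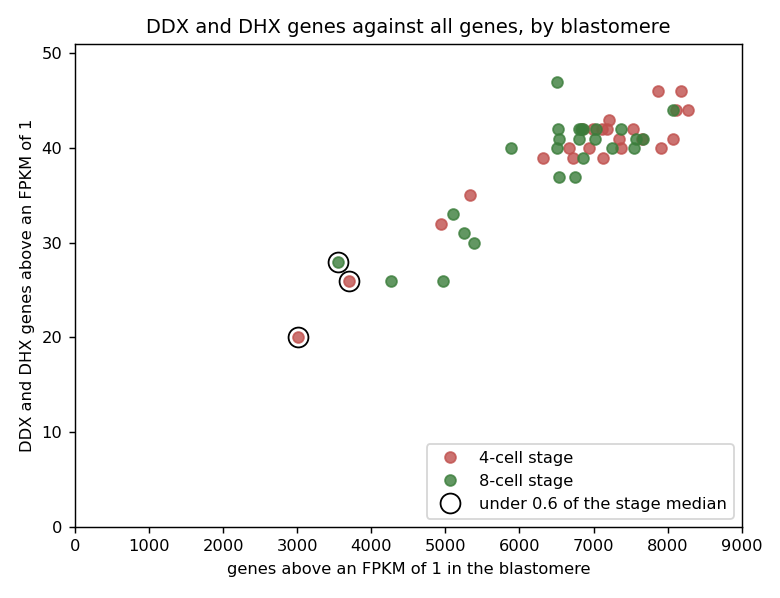
Helicase genes above an FPKM of 1 against all genes above 1, 1 point per blastomere, for 24 4-cell and 26 8-cell blastomeres. The 3 gene-poor blastomeres, circled in black, lie at the low end with 20, 26 and 28 helicase genes, and most others lie near 40 helicase genes.

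Of 24 other helicase genes without a Ddx or Dhx name, 21 were compared, and 3 were at least 2-fold higher and 2 lower at the 8-cell stage, where 5.4% and 10.1% of all genes compared were so. The higher ones were Mov10 with medians of 7.84 and 19.8, Eif4a2 with 48.5 and 112 and Aqr with 5.56 and 13.2. Mov10l1 and Tdrd9 were the lower ones. The call of Tdrd9 was lost with means in place of medians and in 12 of 50 settings that left out 1 blastomere. The translation initiation helicase Eif4a1, at 678 and 768, was above Ddx5, and Eif4a3 of the exon junction complex was at 297 and 328. Of 44 genes for known partners of members, 41 were compared, with 1 at least 2-fold higher and 2 lower, against the same 5.4% and 10.1%. Utp14a, a cofactor of Dhx37, was higher (21.6 and 44.3, a difference of 1.03). Lsm14a, a partner of Ddx6, was lower (19.99 and 6.17, −1.58), as was Gemin6, which sits with Ddx20 in the SMN complex (66.9 and 30.6, −1.11).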

How the data were processed

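Reads were paired, of 100 bases. Per the study's methods, the authors aligned them with STAR to mm10, kept unique alignments, counted them on RefSeq genes with HTSeq and deposited FPKM values, 1 column per blastomere and 1 gene table per stage. The gene lengths and totals behind the FPKM are not given in the sources used here. No name of the 50 columns, 5 of them NA, matches a sample label, and neither column order nor values were used to assign columns to samples. Embryo, lineage, replicates and tests were therefore not used, and 11 samples at the stages of 5 and 6 cells were left out. The labels name 36 blastomeres of 9 embryos at the 4-cell stage and 31 of 4 embryos at the 8-cell stage. The gene tables held fewer, with 24 and 26 columns, 50 in all. The study limited its analyses to 50 blastomeres with a resolved lineage. By the labels, lineages A and B hold 12 and 12 blastomeres at the 4-cell stage and 13 and 13 at the 8-cell stage. The columns thus equal the resolved blastomeres in number, which assigns no single column. The repeat tables were not used.

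Entrez identifiers were matched to RefSeq on GRCm38.p6 (15200 and 15320 matched). Levels were compared as log2(FPKM + 1), as the difference of stage medians over the 13041 genes listed in both tables and above 1 in at least 1 blastomere. A difference of at least 1 was called. Fragments were estimated from genes with 1 curated transcript, for which 90.4% to 96.1% of low values came out whole within 0.1. Stage differences, spreads and fragment estimates were tested on simulated data. Changes were planted there in higher genes only, and no transcript was lost beyond counting noise. Differences that rest on zeros were therefore not covered. Box windows and 100-base windows were read from the genome. Python 3.11.15, pandas 2.3.3, numpy 2.4.6 and Biopython 1.88 were used.

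The members, role groups and lists were chosen with earlier results of these data known. Genes named were the 8 highest and 8 lowest medians and the 6 widest and narrowest spreads per stage, members past 2-fold and the 5 next differences in each direction, germ-line and virus-sensing members and pairs over 60% identity. The other members were named after their values were seen, so that each role was covered. Alternatives were thresholds of 5 and 0.1, a pseudocount of 0.1, other filters, means, standard deviations, 2 scalings, and leaving out columns.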

Additional observations from a re-analysis of the deposited data

How the results depend on the processing

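Ddx17 was at least 2-fold higher and Ddx4 at least 2-fold lower at the 8-cell stage under every alternative run, with differences of 1.04 to 1.58 and of −7.38 to −2.32. The counts of called members were less stable, and several members lay close to the 2-fold line. With a pseudocount of 0.1, 3 members were higher (Ddx17, Dhx35 and Dhx36; 7.81% of all genes) and 5 lower (Ddx4, Ddx19a, Ddx51, Ddx59 and Dhx29; 14.7%), Ddx4 reached −7.38 and Mov10l1 −5.46. With means in place of medians 3 were lower (Ddx4, Ddx47 and Dhx58; 7.05%), and Tdrd9 was at −0.342. With equal FPKM sums 2 were higher (Ddx17 and Dhx35; 6.09%). Without the columns named NA 5 were higher (Ddx1, Ddx17, Ddx23, Dhx35 and Dhx36; 4.75%) and 3 lower (Ddx4, Ddx19a and Ddx51; 11.1%), and the share of members called higher was then above that of all genes. Without the gene-poor blastomeres 2 were lower (Ddx4 and Ddx19a; 10.9%). Leaving out 1 blastomere at a time gave 1 to 2 higher and 1 to 4 lower members, and only 3 of 50 such settings gave exactly Ddx17 and Ddx4. Ddx19a and Ddx51 were each called lower in 25 of them, Dhx35 higher in 25 and Dhx38 lower in 12. The median difference over members then ran from −0.079 to 0, the members with a median above 1 from 43 to 44 at the 4-cell stage and stayed at 41 at the 8-cell stage, and the wide members ran from 27 to 30 and from 24 to 27. Tdrd9 ran from −1.42 to −0.988. In other settings the count of wide members moved further. With standard deviations it was 34 at both stages (81.7% and 75% of genes), and with equal FPKM sums 30 at both (74.7% and 71.9%). Without the columns named NA it was 28 and 31 (74.0% and 72.5%). In these settings the 8-cell share of members was above that of all genes, the reverse of the main setting. The cause was not tested where medians, scalings or left-out columns moved a call. No paired analysis was possible because column names carry neither an embryo nor a replicate number. With each stage as 1 sample, the spread between embryos was not measured, and values under 3 fragments have no order.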
